A study of Mus musculus and Homo sapiens with 9 samples.

Results

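The 8 genes described here, Cdkn1a, Sertad1, Btg2, Plk2, Plk3, Gtse1, Psrc1 and Ckap2, are targets of the transcription factor p53 with roles in cell cycle arrest and mitosis. They were taken by name from 21887 protein-coding genes and were examined for p53 and for thymine DNA glycosylase (TDG), an enzyme that removes mismatched thymine and oxidised methylcytosine from DNA. Both proteins were located by chromatin immunoprecipitation and sequencing (ChIP-seq) in B16, a mouse melanoma line. Each protein had 1 library, and both libraries came from B16 cells with the genotype Tdg HA knockin, in which the TDG protein carries an HA epitope tag. TDG was recovered with an HA antibody and p53 with a p53 antibody, and the labels name no drug or irradiation for these cells. The labels do not say whether the tagged cells were a single clone. The other 7 samples were not analysed here, among them an input library, an HA pull-down from cells without the tag and a p53 pull-down from Trp53 KO cells, so how much of each peak depends on the tag or on p53 was not tested. With 1 library per protein there was no replicate and no test across samples.

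p53 is a stress-activated transcription factor that binds DNA as a tetramer at pairs of a short palindromic half-site. Among its best known products is p21, encoded by Cdkn1a, which blocks cyclin-dependent kinases and halts cell division. Other targets act through mRNA decay, through stress-induced kinases or through the mitotic spindle. TDG works together with the TET enzymes in active DNA demethylation.

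The lists held 3410 TDG peaks and 126 p53 peaks. The authors' fold enrichment of a peak compares the reads piled up at its summit, its highest point, with the local background, and had a median of 5.74 over all TDG peaks and 13.5 over all p53 peaks. The reads at each summit were recovered from the deposited fold enrichment and p-value, and are given below with exact Poisson 95% intervals, which cover counting error only. Fold enrichments of the TDG and the p53 list are on separate scales and were not compared with each other.

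A TDG summit lay inside the gene or within 1 kb of either gene end at 6 of the 8 genes, against 14.8% of all protein-coding genes. These were Cdkn1a, Sertad1, Btg2, Plk2, Gtse1 and Ckap2, with a single TDG peak each. A p53 summit lay inside the gene, or had this gene's end as the nearest one, at 5 of the 8, against 0.512% of all protein-coding genes. These were Cdkn1a with 3 peaks and Btg2, Plk2, Psrc1 and Ckap2 with 1 each. Cdkn1a, Btg2, Plk2 and Ckap2 had peaks of both proteins, as did 0.142% of all protein-coding genes. Sertad1 and Gtse1 had a TDG peak only, Psrc1 a p53 peak only, and Plk3 neither. None of these 13 peaks counted for any other protein-coding gene under the same rules. Because the genes were known p53 targets, and were listed with earlier results of these data known, the shares describe the genes and were not tested. TDG peaks were unevenly spread over the chromosomes that hold the 8 genes, from 6.33% of genes with one on chromosome 8 (Ckap2) to 27.2% on chromosome 15 (Gtse1).

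**Figure D1:**
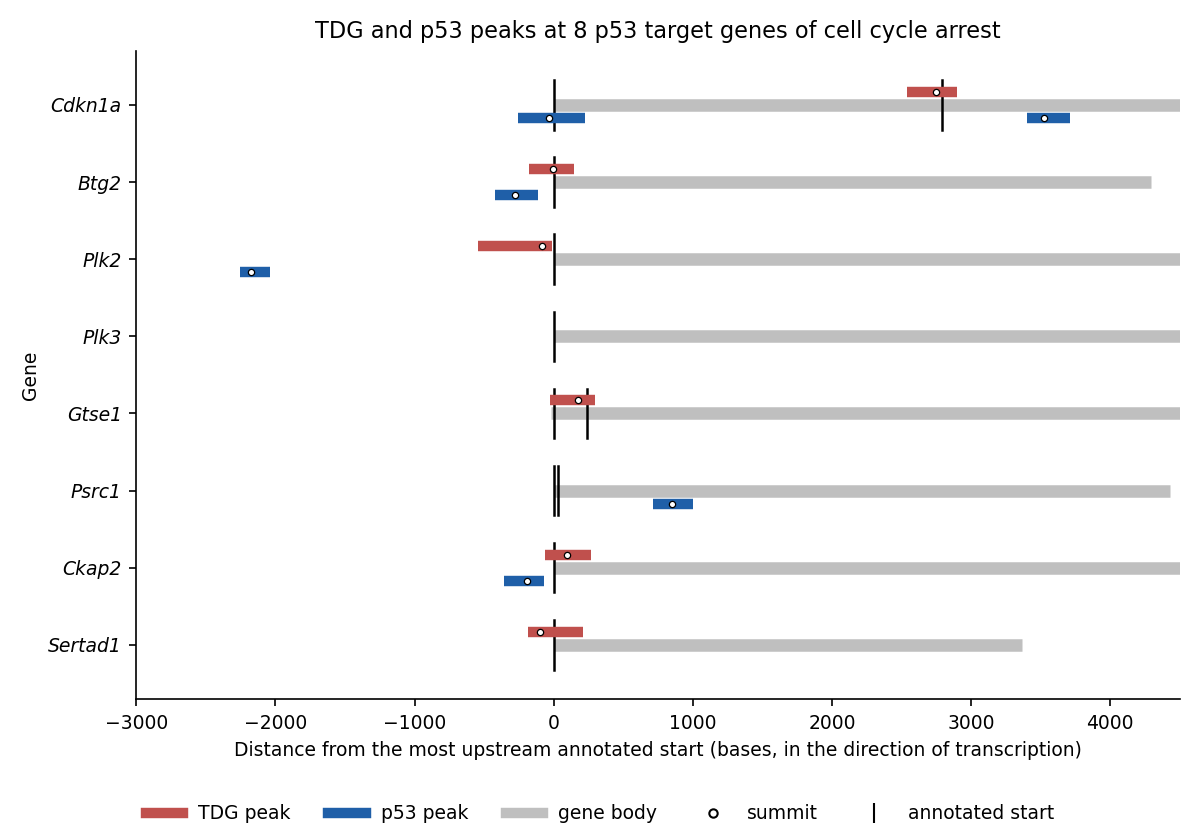
Positions of TDG peaks (red) and p53 peaks (blue) at the 8 genes, with the distance in bases from the most upstream annotated start on the horizontal axis and the genes on the vertical axis. White points are summits, black lines annotated starts and grey bars gene bodies, and the p53 peak 11930 bases before Cdkn1a lies outside the range. The 6 TDG peaks sit at an annotated start, while the p53 peaks lie at several distances.

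Cdkn1a (mm10, chromosome 17, 29090979 to 29100722, plus strand) had the strongest p53 signal of the 8 genes. Its strongest p53 peak lay at the first of 2 annotated starts, and its TDG peak at the second. The first start is at 29090979 and the second at 29093769, inside the gene. p53 was called at the first start (29090720 to 29091201) with a fold enrichment of 32.5, 14th of the 126 p53 peaks, from 123 reads at the summit (interval 102 to 147). The summit lay 36 bases before the first start. TDG was called at the second start (29093515 to 29093875) with a fold enrichment of 7.23, 609th of 3410, from 28 reads (interval 18.6 to 40.5). Its summit lay 39 bases before the second start and 2787 bases from the p53 summit at the first. Neither of these peaks overlapped a peak of the other protein. No TDG summit lay within 1 kb of the first start, the nearest being 2751 bases downstream. Within the same 1 kb the second start did have a p53 summit, 735 bases downstream. That p53 peak, inside the gene (29094384 to 29094688), was weaker, at 12.6-fold and 47 reads (interval 34.5 to 62.5), and its summit was 774 bases from the TDG summit.

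The promoter windows of the 2 starts also differed in sequence. RefSeq promoter windows (GRCm38.p6, which shares its coordinates with mm10) reach from 250 bases before to 50 bases after an annotated start and were given for all 8 genes. At the first start of Cdkn1a the window held 2 CpG dinucleotides, at the second start 23. The first window also held 2 exact matches to the p53 half-site consensus, 73 to 64 and 51 to 42 bases before the start. The later match was followed without a gap by a half-site with 1 mismatch, 41 to 32 bases before the start, and the p53 summit fell inside it. The second window had no exact half-site. The 250 bases before the first start (chr17:29090729-29090978, plus strand) are shown because p53 was centred on them, written 5′ to 3′ with the 2 exact half-sites and the adjoining one in capitals.
Cdkn1a, first start: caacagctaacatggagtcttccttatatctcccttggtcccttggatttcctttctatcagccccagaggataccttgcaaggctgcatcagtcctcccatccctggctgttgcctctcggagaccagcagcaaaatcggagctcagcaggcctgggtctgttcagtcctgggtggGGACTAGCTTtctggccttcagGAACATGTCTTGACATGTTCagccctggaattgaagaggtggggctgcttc

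**Figure D2:**
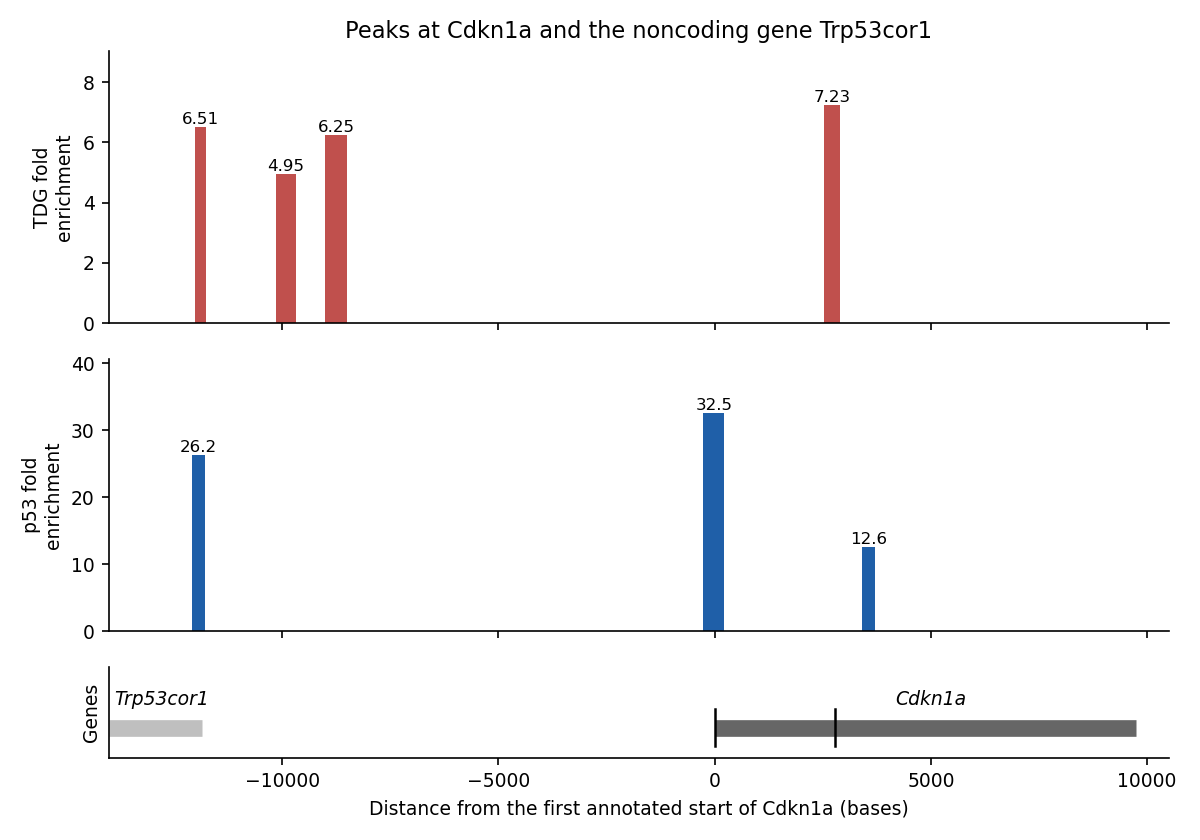
Fold enrichment of each TDG peak (red, top) and p53 peak (blue, middle) along the Cdkn1a locus, with the distance in bases from the first annotated start of Cdkn1a on the horizontal axis. Bars are as wide as the peaks, the 2 vertical axes differ, and the lower strip shows Cdkn1a with its 2 starts and the end of Trp53cor1. The TDG peak of 7.23-fold stands at the second start, between p53 peaks of 32.5-fold and 12.6-fold.

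The remaining p53 peak counted for Cdkn1a lay far upstream, at the noncoding gene Trp53cor1, which produces lincRNA-p21, a transcript known to be induced by p53. Its summit was 11930 bases before Cdkn1a and 77 bases inside the upper end of Trp53cor1 (29057474 to 29079126). It reached 26.2-fold with 99 reads (interval 80.5 to 121). A TDG peak of 6.51-fold and 24 reads (interval 15.4 to 35.7) had its summit 14 bases from the same end and 63 bases from the p53 summit, and the peaks shared 245 bases. This TDG peak is outside the 1 kb limit for Cdkn1a, as were 2 further TDG peaks whose summits lay 10093 bases (4.95-fold) and 8836 bases (6.25-fold) before it. So the closest pair of summits in the region belonged to Trp53cor1 and not to either start of Cdkn1a.

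Sertad1 (chromosome 7, 27486953 to 27490316, plus strand), which encodes a CDK4-binding coactivator of E2F factors, had the highest TDG enrichment of the 8 genes. The peak (27486765 to 27487164) reached 8.33-fold, 219th of 3410, with 31 reads (interval 21.1 to 44.0), and its summit lay 95 bases before the start. The nearest p53 summit on the chromosome was 2602127 bases away, and the promoter window had no exact p53 half-site. The neighbouring genes on either side also had TDG peaks: Sertad3, of the same family, at 7.96-fold, and Prx at 7.55-fold. Among the neighbours of the rest of the 8 genes, only Srsf3 beside Cdkn1a had one (6.25-fold). No neighbour had a p53 peak.

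Btg2 (chromosome 1, 134074865 to 134079155, minus strand) encodes an antiproliferative protein that recruits the CCR4-NOT deadenylase to mRNA. It was the only one of the 8 genes whose own TDG and p53 peaks overlapped. Such an overlap occurred at 6 of the 27 other protein-coding genes with peaks of both proteins. At Btg2 the TDG peak (134079010 to 134079332) reached 6.66-fold with 27 reads (interval 17.8 to 39.3) and its summit lay 8 bases before the start. The p53 peak (134079271 to 134079577) reached 15.9-fold with 82 reads (interval 65.2 to 102), and its summit was 278 bases before the start. The summits were thus 270 bases apart, with p53 upstream, and the peaks shared 62 bases. The p53 summit fell just outside the promoter window, which had 32 CpG and no exact half-site. Sequence at the summit itself was not searched.

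The polo-like kinases Plk2 and Plk3, both induced by stress, differed from each other. Plk2 (chromosome 13, 110395044 to 110400844, plus strand) had a TDG peak (110394497 to 110395033) of 5.51-fold with 22 reads (interval 13.8 to 33.3), whose summit lay 82 bases before the start. Its p53 peak (110392788 to 110393005) was the weakest of the 8 genes, at 10.5-fold and 39 reads (interval 27.7 to 53.3), and lay 2173 bases before the start. The summits were 2091 bases apart, again with p53 upstream. At Plk3 (chromosome 4, 117128655 to 117133963, minus strand) no peak was called: the nearest TDG summit was 571217 bases from the gene and the nearest p53 summit 18167101 bases. Its promoter window held 22 CpG and no exact half-site.

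The stretches before 4 starts with a TDG peak are shown to compare their CpG content, written 5′ to 3′ on the gene's strand with each CpG in capitals. They are the second start of Cdkn1a (chr17:29093519-29093768, plus strand), Sertad1 (chr7:27486703-27486952, plus strand), Btg2 (chr1:134079156-134079405, minus strand) and Plk2 (chr13:110394794-110395043, plus strand).
Cdkn1a, second start: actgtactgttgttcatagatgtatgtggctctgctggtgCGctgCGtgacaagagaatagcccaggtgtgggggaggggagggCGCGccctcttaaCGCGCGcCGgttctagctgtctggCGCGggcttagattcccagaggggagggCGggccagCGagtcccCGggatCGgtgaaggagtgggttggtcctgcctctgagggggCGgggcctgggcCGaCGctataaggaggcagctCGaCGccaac
Sertad1: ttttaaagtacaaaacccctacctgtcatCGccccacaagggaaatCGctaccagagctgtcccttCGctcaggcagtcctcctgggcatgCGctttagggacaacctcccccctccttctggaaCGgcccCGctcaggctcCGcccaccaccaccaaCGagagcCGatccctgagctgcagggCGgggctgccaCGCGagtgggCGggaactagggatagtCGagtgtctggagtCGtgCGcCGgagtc
Btg2: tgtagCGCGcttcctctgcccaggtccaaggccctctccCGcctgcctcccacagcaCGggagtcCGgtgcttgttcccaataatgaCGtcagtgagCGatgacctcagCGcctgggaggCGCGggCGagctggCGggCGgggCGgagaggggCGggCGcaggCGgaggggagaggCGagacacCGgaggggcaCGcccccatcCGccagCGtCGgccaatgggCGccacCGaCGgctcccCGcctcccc
Plk2: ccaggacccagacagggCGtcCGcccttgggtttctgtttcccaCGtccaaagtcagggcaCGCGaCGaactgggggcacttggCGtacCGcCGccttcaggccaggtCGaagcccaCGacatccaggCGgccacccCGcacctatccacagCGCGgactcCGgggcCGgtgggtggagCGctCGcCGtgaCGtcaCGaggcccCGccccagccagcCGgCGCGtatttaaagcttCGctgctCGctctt

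The remaining 3 genes encode microtubule-binding proteins. Ckap2 (chromosome 8, 22168149 to 22185819, minus strand), a spindle protein, had peaks of both kinds side by side. The TDG peak (22185554 to 22185885) was the lowest of the 8 genes, at 4.70-fold, a −log10 q of 4.37 and 17 reads (interval 9.9 to 27.2), and its summit lay 92 bases after the start. The p53 peak (22185887 to 22186178) reached 15.2-fold with 57 reads (interval 43.2 to 73.9), and its summit lay 190 bases before the start. The peaks did not overlap, with 1 base between them, and the summits were 282 bases apart. The promoter window held 1 exact p53 half-site, AGACATGTCC, 203 to 194 bases before the start, whose nearest base was 4 bases from the p53 summit. The noncoding gene Gm29878 begins 19 bases beyond that summit, nearer than Ckap2.

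Gtse1 (chromosome 15, 85859691 to 85876573, plus strand), whose product restrains p53 after DNA damage, had a TDG peak (85859679 to 85860006) of 4.82-fold with 25 reads (interval 16.2 to 36.9). The local background there, 4 weighted reads, was the highest among the TDG peaks of the 8 genes. The summit lay between the annotated starts, 171 bases after the first and 68 bases before the second. The nearest p53 summit was 10772878 bases away, while the second window had an exact half-site, GGGCTTGCCT, beginning 9 bases after the start. Psrc1 (chromosome 3, 108383804 to 108388231, plus strand), a regulator of spindle microtubules, showed the reverse. Its p53 peak (108384521 to 108384803) reached 17.1-fold with 64 reads (interval 49.3 to 81.7), with the summit 851 bases after the first start and inside the gene. The nearest TDG summit was 126958 bases away, at Psma5.

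Where no peak was called, weaker binding was not detectable at this depth. At the genome-wide background, the smallest called peak had 15 reads for TDG and 23 for p53. The TDG peak at Ckap2, with 17 reads, was close to that limit, whereas the p53 peaks of the 8 genes had at least 39.

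Within their own lists, the TDG peaks of the 8 genes were of ordinary height, 3 of 6 being at or above the median of the list, and none had a local background above 4 reads. Of the 7 p53 peaks, 5 were at or above the median of their list.

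**Figure D3:**
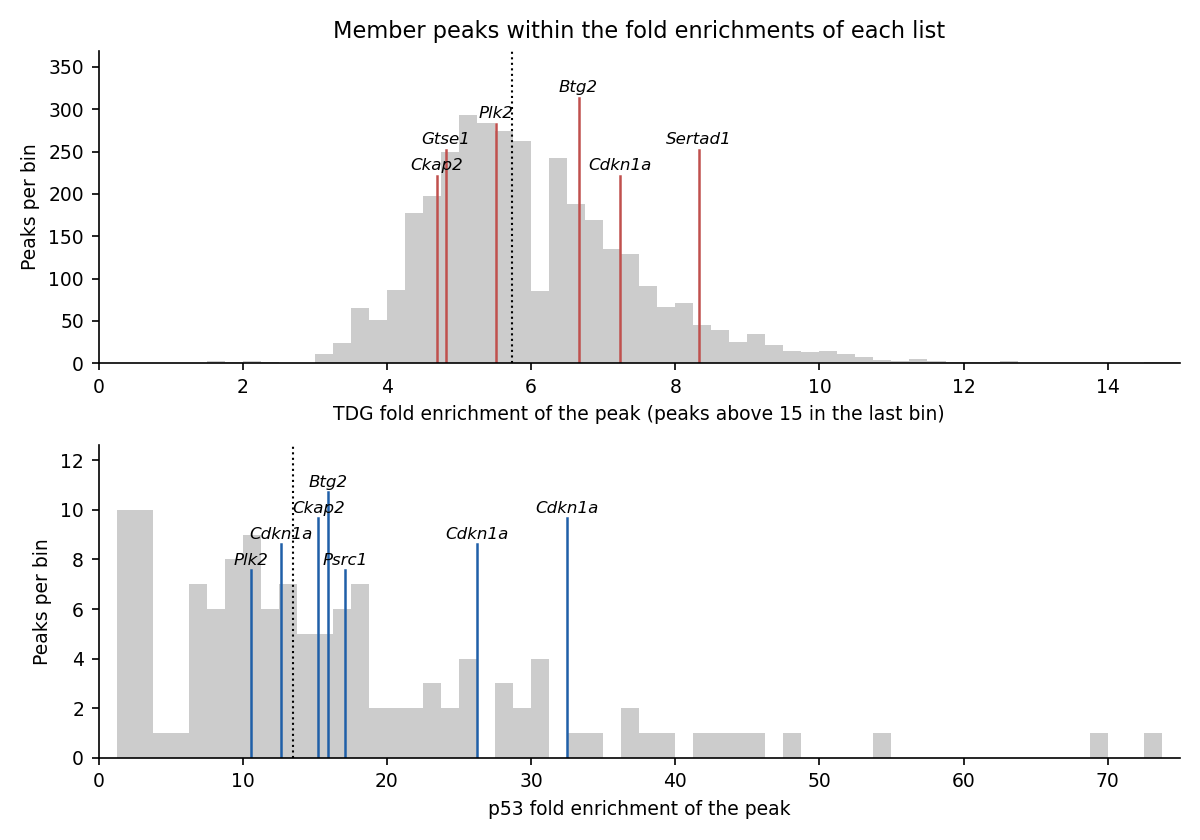
Fold enrichments of all 3410 TDG peaks (top) and all 126 p53 peaks (bottom) as grey histograms, in peaks per bin, with the peaks of the 8 genes as labelled lines and the median of the list dotted. The TDG lines run from 4.70 to 8.33 and the p53 lines from 10.5 to 32.5, where Cdkn1a stands highest.

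All 6 TDG summits lay within 100 bases of an annotated start, at a median of 75 bases and a range of 8 to 95. Among 2722 other genes with a TDG peak under the same rule and an annotated start, 34.8% had a TDG summit as close, and the median distance was 151 bases with quartiles of 73 and 317. The 100-base limit was chosen after seeing the distances, and genes with several starts were measured to the nearest. Cdkn1a belongs to this group only through its second start, since measured from the ends of the gene its TDG summit was 2751 bases inside.

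The windows with a TDG summit were rich in CpG, but so were others. The 5 member windows with a TDG summit held 20 to 32 CpG, against a median of 13 in all 21263 windows of protein-coding genes and 25 in the 1536 windows with a TDG summit. Ckap2, whose TDG summit was outside its window, had 22. Plk3 with 22 CpG and Psrc1 with 23 in each window had no TDG peak, so a CpG count in this range also occurred without one. Of all windows with at least 20 CpG, a level chosen after seeing these counts, 15.5% held a TDG summit, and of those with fewer 2.57% did. The GC box GGGCGG, searched on both strands like the motifs that follow, was present in 4 of the 5 member windows with a TDG summit, Gtse1 being the exception, and in 4 of the 6 without one. The Psrc1 windows overlap, and the same GC box was counted in each. It was in 83.6% of all windows with a TDG summit and in 46.2% of all windows. CCAAT occurred in every window of Btg2, Ckap2, Gtse1 and Psrc1, against 38.2% of all windows and 48.8% of those with a TDG summit. The hexamer TTTGAA, the core of the CHR element of mitotic genes, occurred in Ckap2 only, against 16% and 7.94%. The windows of Gtse1 also overlap, and at both Gtse1 and Psrc1 the same CCAAT was counted in each window. Motif matches describe the letters of a window and were not tested as binding sites.

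**Figure D4:**
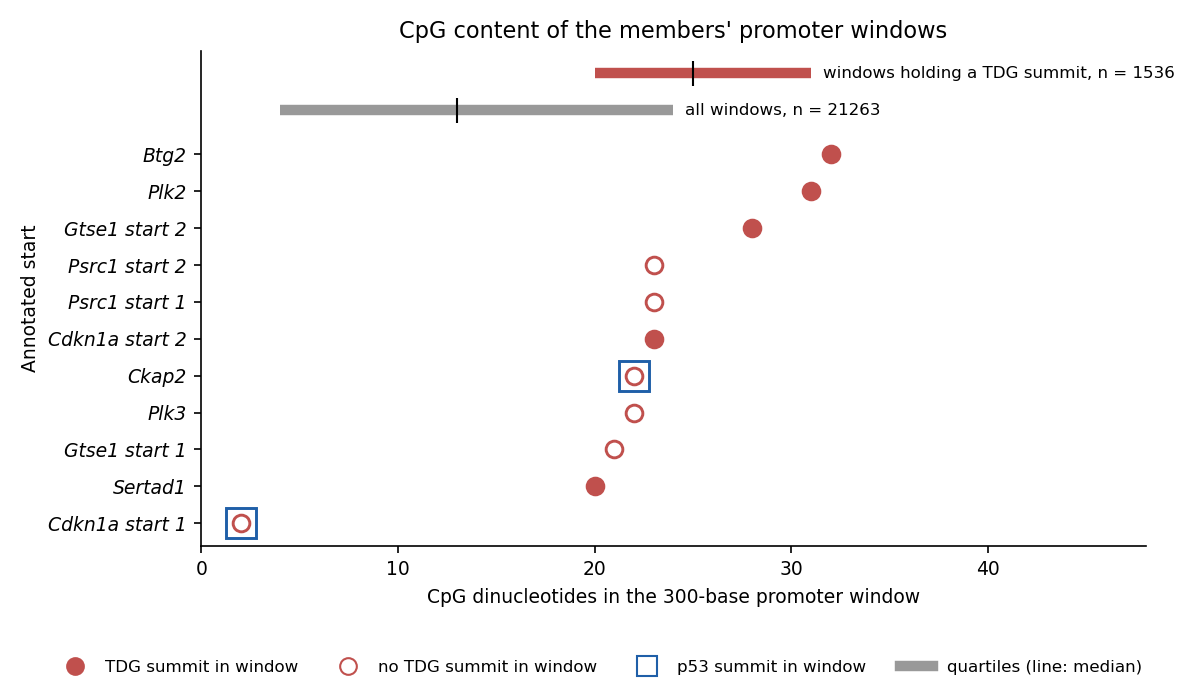
CpG dinucleotides (horizontal axis) in the 300-base promoter window of each annotated start of the 8 genes (vertical axis), filled where the window held a TDG summit and boxed where it held a p53 summit, above which bars give the quartiles of all windows and of those with a TDG summit. The first start of Cdkn1a, with 2 CpG and a p53 summit, stands apart from the other windows, which hold 20 to 32.

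Exact p53 half-sites were found in 3 of the 11 member windows, at Cdkn1a, Ckap2 and Gtse1, against 7.37% of all windows. Both member windows that held a p53 summit, Cdkn1a at its first start and Ckap2, had one. Of the 9 windows of other genes with a p53 summit, 7 had one. The p53 summits of Btg2, Plk2 and Psrc1, and the other summits of Cdkn1a, lay outside the windows. Half-sites at those summits were not searched.

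At the 4 genes with both proteins, the smallest gap between summits was 270 bases at Btg2, 282 at Ckap2, 774 at Cdkn1a and 2091 at Plk2. In the direction of transcription p53 was upstream of TDG at Btg2, Ckap2 and Plk2 and, for this closest pair, downstream at Cdkn1a. Another 27 protein-coding genes had peaks of both proteins. Their median gap was 6438 bases, with 9 of 27 within 1 kb against 3 of the 4 genes here. The peaks of that pair overlapped at 6 of the 27, against 1 of the 4. In these 27 genes p53 was upstream at 13, downstream at 11 and of unknown direction at 3. The rules count summits anywhere inside a gene, and gaps were not adjusted for gene length or number of peaks. The smallest gaps, 2 bases at Zc3h7a and 17 at Cmss1 and Filip1l, lay in regions with a local background of at least 10 reads. Within such regions, Cmss1 and Filip1l had the same gap, overlap and fold enrichments and were counted as separate genes. Of the other genes outside such regions, Trp53inp1 (58 bases), Ccng1 (113 bases) and Sp1 (175 bases) had closer summits than any of the 4 genes.

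**Figure D5:**
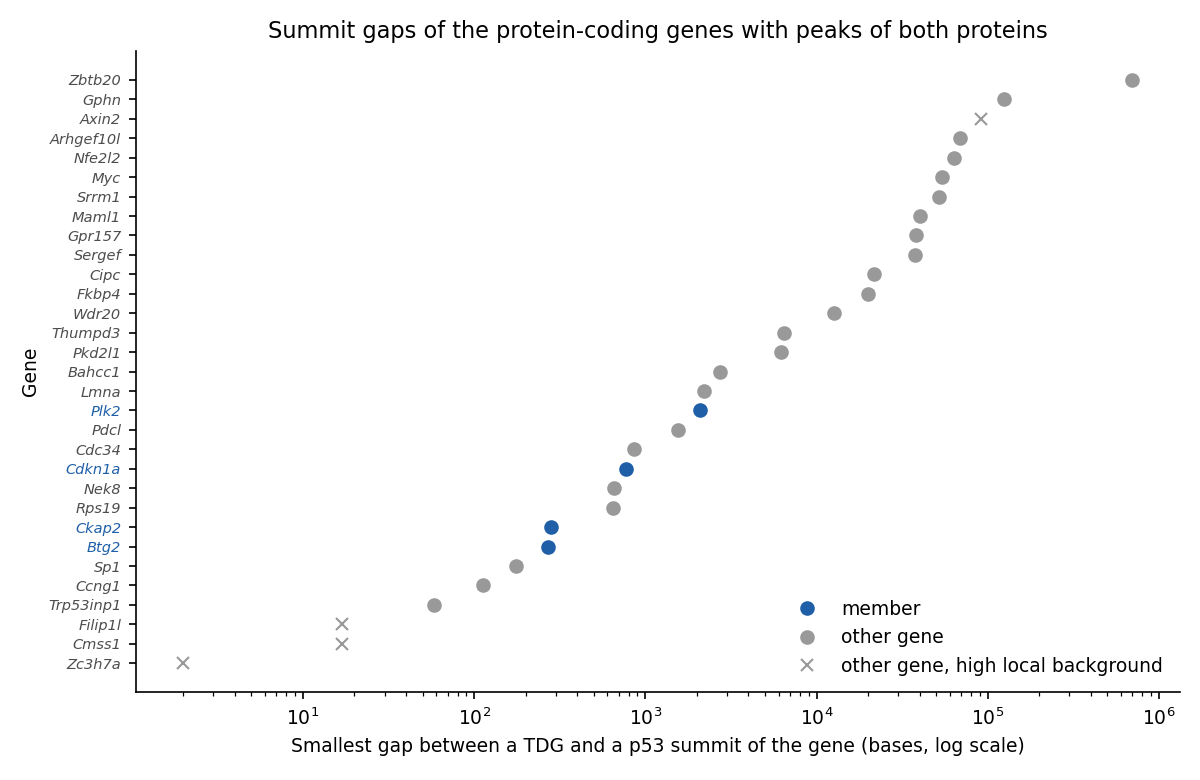
Smallest gap in bases (log axis) between a TDG and a p53 summit at each of the 31 protein-coding genes with peaks of both, with the 4 genes of the arrest group in blue and crosses where the local background was at least 10 reads. Btg2 and Ckap2 lie near 280 bases, Cdkn1a at 774 and Plk2 at 2091, among gaps that run from 2 to 699185.

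Relatives and partners of the 8 genes were examined from lists of names, drawn up with earlier results of these data known. Of 19 relatives, 7 had a TDG peak under the same rule (36.8%, against 14.8% of all protein-coding genes). None had a p53 peak, which with 0.512% of all genes having one is near the background for a list of this size. Of the other CDK inhibitor genes, Cdkn1b (6.24-fold), Cdkn2c (6.77-fold) and Cdkn2d (7.81-fold) had a TDG peak, and Cdkn1c, Cdkn2a and Cdkn2b had none. Of the other SERTA domain genes, Sertad2 (8.33-fold), Sertad3 and Cdca4 (8.07-fold) had one and Sertad4 had none. Plk1, the mitotic polo-like kinase, had a TDG peak of 4.70-fold, and Plk4, Plk5, Ckap2l and the 5 other BTG/TOB genes had none.

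Among 43 cyclins, kinases and further genes of the p53 arrest pathway, 13 had a TDG peak (30.2%, against 14.8% of all protein-coding genes). A p53 peak was called at 6 (14%, against 0.512% of all genes) and peaks of both at 2 (against 0.142% of all genes). Because the list names known p53 targets, these shares describe the genes chosen and were not tested. None of the listed D, E, A and B cyclins and cyclin-dependent kinases had a p53 peak. With 0.512% of all genes having one, this is near the background for so few genes. The genes with both were Ccng1, a cyclin that is a p53 target (27.8-fold for p53, 5.73-fold for TDG), and Trp53inp1 (39.6-fold and 4.95-fold). The p53-only genes were Zmat3 (36.7-fold), Mdm2 (26.0-fold) and Mdm4 (16.6-fold), of which the last pair restrain p53, and Rap2b (10.6-fold). The 11 genes with TDG only began with Lin52 (9.11-fold), a subunit of the DREAM complex through which p21 represses mitotic genes, and Sesn1 (8.07-fold), itself a p53 target. E2f1, Cnot3 (both 7.55-fold), Gadd45a (6.67-fold), Ppm1d (5.99-fold) and Aurka (5.73-fold) followed, with the cyclins Ccnd3 (5.99-fold), Ccna2 (5.33-fold), Ccnd1 (4.95-fold) and Ccnd2 (4.92-fold). The other listed DREAM genes, Lin9, Lin37, Lin54, E2f4, Rbl1 and Rbl2, had no peak of either protein. Targets of p21 such as Cdk1, Cdk2, Cdk4 and Pcna also had none, as was the case for most protein-coding genes.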

How the data were processed

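Peak lists of 2 ChIP-seq libraries were used, 1 per protein. The submitters' processing notes name the build mm10 and, with no role given, the tools MACS2, Bowtie2, ChIPseeker, Picard, Trim Galore and deepTools. The sources used here give no versions, control library or calling threshold. The authors deposited, for each peak, its position, a fold enrichment (a ratio), a −log10 p, a −log10 q and a score of 10 times the −log10 q. The lists hold no totals per library, so depth was read from the reads at summits. These were recovered as the read number and background that give both the deposited fold enrichment and the deposited Poisson p under MACS2's definitions, after a check on simulated peaks. They came out whole within 0.05 for 3409 of 3410 TDG and 123 of 126 p53 peaks, when 1 read is given a weight of 0.924 in the TDG and 0.7924 in the p53 list. Local backgrounds are in these weighted reads.

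Genes came from RefSeq GRCm38.p6 and promoter windows from its 17492 protein-coding genes with a sequence. The named genes were the 8 members, listed relatives and pathway genes, and neighbours. Members, lists and alternatives were chosen with earlier results of these data known. Python 3.11.15, SciPy 1.17.1 and pandas 2.3.3 were used. No test was run, since each list is 1 library. Other windows, assignments, overlaps and thresholds were tried as alternatives.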

Additional observations from a re-analysis of the deposited data

How the results depend on the processing

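Of 26 alternative values of the counts, the smallest gap and the overlaps, 19 stayed within 1.5 times the reported value. Of 15 alternative values of the gaps at single genes, 11 did. Keeping only peaks that reached their list's median fold enrichment removed weaker peaks by construction. Then 3 of the 8 genes had a TDG peak (Cdkn1a, Btg2 and Sertad1), against 7.96% of all protein-coding genes. Peaks of both proteins remained at 2, against 0.0457% of all. Measured between peak edges, the smallest gap was 0 bases, because the peaks at Btg2 overlap. From edge to edge the gap was 2 bases at Ckap2, 509 at Cdkn1a and 1492 at Plk2. With any TDG peak of the list allowed, the smallest gap became 63 bases, at the Trp53cor1 site counted for Cdkn1a. Overlaps were counted with TDG peaks inside the gene or within 1 kb of its ends. Under that rule no gene had peaks sharing at least 50% of the shorter one, and 3 had peaks within 1 kb of each other. With up to 1 mismatch, 9 of the 11 windows held a p53 half-site, as did 68.1% of all windows. The overlapping Psrc1 windows share 1 of these sites. With a −log10 q of at least 5, Ckap2 lost its TDG peak. That left 5 genes with TDG, against 13.2% of all protein-coding genes, and 3 with both, against 0.137%. With gene ends only, Cdkn1a lost its TDG peak (5 genes, against 12.3% of all protein-coding genes). With the nearest end of any annotated gene, Ckap2 lost its p53 peak (4 genes, against 0.338% of all protein-coding genes). With p53 assigned by the TDG rule, Plk2 lost its p53 peak. This left 4 genes with p53, against 0.292% of all protein-coding genes, and 3 with both, against 0.0868%. Leaving out peaks with high background, an alternative chosen after seeing the data, gave the same 6, 5 and 4 genes. The shares of all protein-coding genes were then 14.8%, 0.466% and 0.123%. Counting TDG within 1 kb of an annotated start, also added later, gave the same 6, against 10.9% of all. The TDG peaks of these genes rest on 17 to 31 reads at their summits and the p53 peaks on 39 to 123. No paired analysis was possible because each group held 1 library.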

Other observations

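The cAMP response element TGACGTCA, a motif looked for only after the sequences had been seen, occurred in the Btg2 window 166 bases before the start and in the Plk2 window 62 bases before the start. It was in 2.23% of all windows and in 4.49% of windows with a TDG summit. Both genes had a TDG summit in that window, and their p53 summits lay farther upstream.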
